A study of Homo sapiens with 9 samples.

Results

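The genes of MHC class I antigen presentation were followed in ALL-SIL cells, an established human line of T-cell acute lymphoblastic leukaemia in which the homeobox oncogene TLX1 is active. They were chosen by name, as 9 genes (HLA-B, HLA-C, HLA-E, HLA-F, B2M, TAP1, TAP2, TAPBP and NLRC5) among the 58096 gene identifiers in the count tables, and all 9 names matched 1 identifier each. Polyadenylated RNA was sequenced from 9 libraries of cells electroporated with a small interfering RNA (siRNA): 3 labelled TLX1 siRNA1, 3 labelled TLX1 siRNA2 and 3 labelled NTC, a term the labels do not spell out. All groups share the cell line, the medium and the electroporation, so none was left untreated. Whether replicates were separate cultures is not in the labels, so a p-value here reflects no more than the spread among these samples, possibly a technical one.

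MHC class I molecules display peptides from inside the cell to CD8 T cells. A polymorphic heavy chain (HLA-B, HLA-C, or the less variable HLA-E and HLA-F) pairs with the invariant light chain beta-2-microglobulin, encoded by B2M. Peptides cut by the proteasome are pumped into the endoplasmic reticulum by the TAP1 and TAP2 transporter, where tapasin (TAPBP) holds empty class I molecules beside it. NLRC5 is the transactivator of the class I genes: it binds no DNA itself and is recruited by the RFX, CREB/ATF and NF-Y factors on their promoters, which interferon and NF-kappa-B signals also reach. NK cells read class I molecules, HLA-E among them, as a sign that inhibits killing.

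In GENCODE 29 on GRCh38 all members but B2M and NLRC5 lie in the MHC region of chromosome 6. The minus-strand genes there are HLA-B (ENSG00000234745.9, 31269491 to 31357188), HLA-C (ENSG00000204525.15, 31268749 to 31272130), TAP2 (ENSG00000204267.13, 32821833 to 32838780), TAP1 (ENSG00000168394.10, 32845209 to 32853978) and TAPBP (ENSG00000231925.11, 33299694 to 33314387). The plus-strand genes are HLA-F (ENSG00000204642.13, 29722775 to 29738528) and HLA-E (ENSG00000204592.8, 30489467 to 30494205). On chromosome 15 B2M (ENSG00000166710.17, plus strand) spans 44711487 to 44718877, and on chromosome 16 NLRC5 (ENSG00000140853.15, plus strand) spans 56989485 to 57083531. All 9 are protein-coding.

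Promoters are shown for a heavy chain that was abundant (HLA-B) and a heavy chain with at most 5 counted reads in a library (HLA-F). Those of the light chain (B2M) and a transporter subunit (TAP1) are shown beside them. Whether their control elements bear on the levels given after them was not tested. RefSeq's table (GRCh38.p14) held 8 promoters for 7 of the 9 members, each with 250 bases before and 50 bases after the start. HLA-E and NLRC5 had none there, so their promoters were not searched. Capitals mark matches on either strand to 4 motifs: AANNGAAA, the core that interferon regulatory factors bind, CCAAT, the NF-Y box, TGACG, the first bases of a CREB/ATF site, and the NF-kappa-B motif. The promoter of HLA-B lies at chr6:31357130-31357429 (minus strand), that of HLA-F at chr6:29723184-29723483 (plus strand), that of B2M at chr15:44711267-44711566 (plus strand) and that of TAP1 at chr6:32853655-32853954 (minus strand).
HLA-B: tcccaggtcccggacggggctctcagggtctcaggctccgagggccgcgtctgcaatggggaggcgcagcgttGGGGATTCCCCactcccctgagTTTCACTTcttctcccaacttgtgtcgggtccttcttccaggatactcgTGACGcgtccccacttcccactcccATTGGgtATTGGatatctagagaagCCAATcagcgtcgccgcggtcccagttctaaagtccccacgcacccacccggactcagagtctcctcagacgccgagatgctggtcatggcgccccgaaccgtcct
HLA-F: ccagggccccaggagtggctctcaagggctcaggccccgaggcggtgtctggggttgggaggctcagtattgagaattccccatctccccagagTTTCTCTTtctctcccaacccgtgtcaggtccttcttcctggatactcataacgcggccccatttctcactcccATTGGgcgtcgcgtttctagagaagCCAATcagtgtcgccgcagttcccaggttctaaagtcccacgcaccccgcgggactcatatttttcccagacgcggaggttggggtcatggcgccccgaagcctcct
B2M: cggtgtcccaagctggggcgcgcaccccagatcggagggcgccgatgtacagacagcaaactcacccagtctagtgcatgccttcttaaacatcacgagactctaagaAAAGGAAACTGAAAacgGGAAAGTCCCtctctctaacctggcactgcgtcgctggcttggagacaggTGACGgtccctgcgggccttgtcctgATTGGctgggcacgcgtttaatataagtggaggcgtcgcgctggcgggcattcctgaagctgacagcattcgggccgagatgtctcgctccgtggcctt
TAP1: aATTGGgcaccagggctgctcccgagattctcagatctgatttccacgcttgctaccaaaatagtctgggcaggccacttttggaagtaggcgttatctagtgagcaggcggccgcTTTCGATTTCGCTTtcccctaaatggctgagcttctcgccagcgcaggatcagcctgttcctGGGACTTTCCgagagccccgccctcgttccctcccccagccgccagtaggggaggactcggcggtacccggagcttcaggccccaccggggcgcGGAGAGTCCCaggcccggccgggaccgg

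AANNGAAA stood in the promoters of HLA-B, HLA-C, HLA-F, B2M, TAP2, TAPBP and in 1 of the 2 promoters listed for TAP1, against 22.8% of all 35116 promoters of this length. In B2M, TAP1, TAP2 and TAPBP there were 2 overlapping copies, and in the heavy chains 1. The NF-kappa-B motif (11.3% of all promoters) matched in HLA-B, HLA-C, B2M, TAPBP and the same TAP1 promoter, but not in HLA-F or TAP2. In HLA-B the NF-kappa-B matches are 4 readings of 1 palindromic stretch. TGACG (24.6% of all promoters) matched in HLA-B, HLA-C, B2M and TAP2, and CCAAT (34.6%) in HLA-B, HLA-C, HLA-F, B2M and TAP1. The second TAP1 promoter held none of the 4 motifs. These matches describe letters in a window and are not evidence of binding.

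Depth was 58305492 to 99524663 gene counts per library. TLX1, which checks the labels, had 406, 457 and 387 CPM (counts scaled to a common library total with TMM factors) in the libraries labelled siRNA1, 198, 231 and 179 CPM in those labelled siRNA2, and 184, 167 and 183 CPM in those labelled NTC. The libraries labelled siRNA1 thus held more of the targeted mRNA, which goes against their label, so directions are given by label and say nothing of what less TLX1 would do. Of 14 T-cell leukaemia markers 13 reached 1 CPM in all 9 libraries and PTCRA did not. Markers of NK and erythroid cells summed to at most 0.0841 CPM in any library and those of myeloid cells to at most 1.05 CPM, while the B cell list summed to 19.9 to 32.5 CPM, most of it CD79A and CD79B. Of 6 antigen-presenting cell markers 5 stayed under 1 CPM throughout, class II genes among them.

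**Figure D1:**
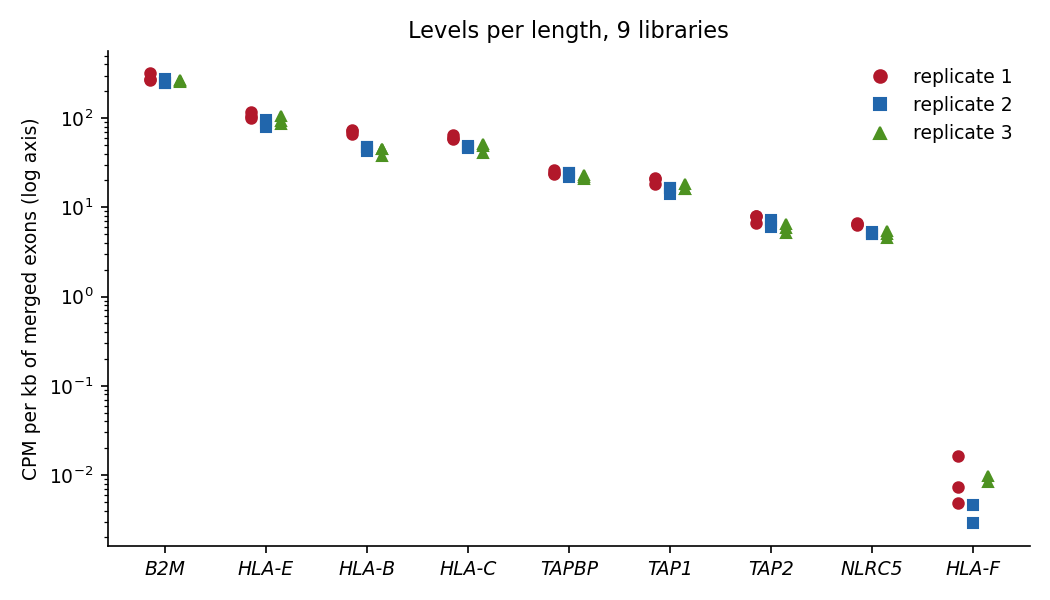
Level of each class I presentation gene in CPM per kb of merged exons (log axis), 1 point a library, marked by replicate number. B2M is highest at 245 to 318 and HLA-F lowest at 0.0162 or less, with the 2 libraries that held 0 HLA-F reads not drawn.

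B2M was the most abundant member, and TAP2 and NLRC5 were the least abundant of the 8 tested members. Levels between genes are compared per length, as the mean over 9 libraries of CPM per kb of merged exons. B2M stood at 268 ± 21.7 CPM per kb, HLA-E at 96.4 ± 11.05, HLA-B at 53.1 ± 13.7 and HLA-C at 51.5 ± 7.60 CPM per kb (SD over the 9 libraries of all 3 groups). Tapasin followed at 23.4 ± 1.58 CPM per kb, TAP1 at 17.5 ± 2.32, TAP2 at 6.69 ± 0.928 and NLRC5 at 5.53 ± 0.805 CPM per kb. The plot of levels per length shows which neighbours in this order separate. HLA-B and HLA-C overlapped, with HLA-B higher in 4 of 9 libraries, and so did TAP2 and NLRC5, with TAP2 higher in 8 of 9. TAPBP and TAP1 overlapped in range, but TAPBP was higher within every library. HLA-E, a non-classical heavy chain, was above HLA-B and HLA-C in every library on this scale. Per kb of the longest transcript, HLA-E was still above HLA-C in all 9 libraries, but HLA-B was above HLA-E in 4 of 9, among them the 3 of replicate 1. On that scale HLA-B was above HLA-C in all 9, NLRC5 above TAP2 in all 9, and TAPBP above TAP1 in 7 of 9, so the order of these neighbours depends on the length used.

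HLA-F had almost no counted reads. It had 2, 0 and 4 reads in the libraries labelled siRNA1, 5, 1 and 0 in those labelled siRNA2, and 2, 2 and 3 in those labelled NTC. None of these is more than 0.0705 CPM, the low-count filter removed the gene, and no comparison between groups was made for it. Exons of other genes lie opposite 28.5% of its exon bases, and HLA-F-AS1, one of them, had at most 1 read in any library. Reads that match several class I genes may be missing from its count, which was not tested. The 8 other members passed the filter.

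Reads of overlapping genes bear on the levels of 3 members. For HLA-B and TAP1 this is because the library kit does not mark strand. HLA-B shares 542 exon bases (17.8%) with a pseudogene on the opposite strand, and TAP1 shares 456 (9.49%) with PSMB8-AS1. When the 2 strand-specific counts were added, a read in an opposite-strand overlap counted for both genes. The sums may thus include reads of the other gene. HLA-B rose to 1.32 times and TAP1 to 1.58 times its unstranded count, and the per-length means became 70.0 and 27.7 CPM per kb. The other genes rose too: in siRNA1 replicate 1 the pseudogene went from 5 to 7916 reads and PSMB8-AS1 from 2319 to 7956. TAP1 was then above TAPBP (23.4 CPM per kb) in 8 of 9 libraries and HLA-B above HLA-C in all 9, so both orders depend on the counting. TAP2 shares 2064 exon bases (32.3%) with another protein-coding gene model on its own strand, where adding the strand counts returns no reads. HLA-B and HLA-C share only 35 annotated bases but are close in sequence throughout, so reads may be split between them.

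**Figure D2:**
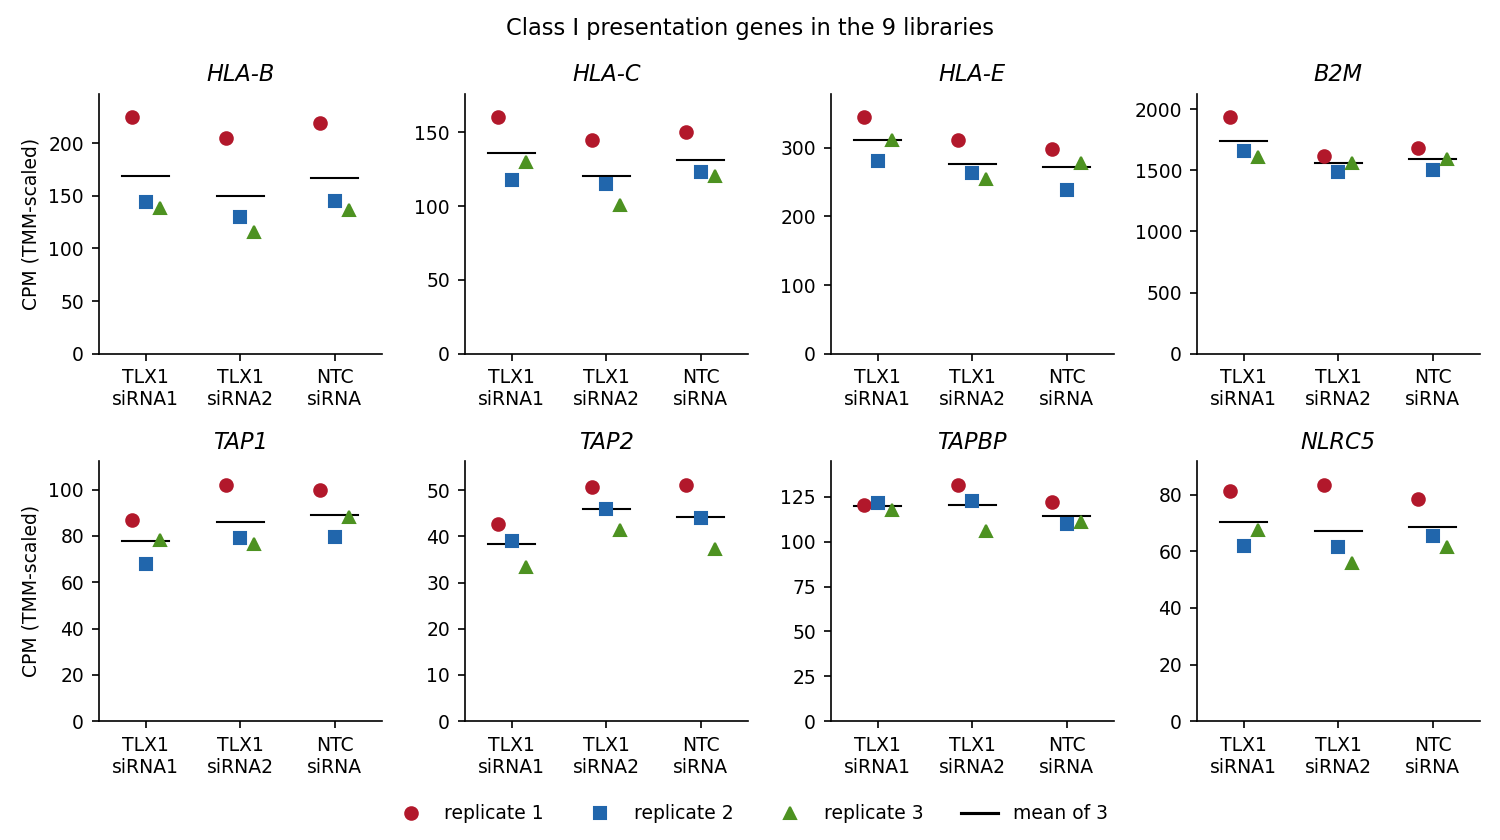
CPM (TMM-scaled, axis from 0) of the 8 tested class I presentation genes in each library, by siRNA label and replicate number, with the mean of 3 libraries as a line. In HLA-B the replicate 1 libraries sit between 205 and 225 CPM under all 3 labels and the other 6 libraries between 115 and 145 CPM.

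The first question is whether class I genes differed under TLX1 siRNA1 from their level under NTC siRNA. None of the 8 tested members passed the test: edgeR's quasi-likelihood test gave adjusted p between 0.617 and 0.992, with 1.28% of all 18554 genes passing at an adjusted p under 0.05. The median log2 fold change of the 8 was 0.04, against 0.01 over all genes tested, and the 95% intervals of single members ran from −0.52 to 0.56. The plot of values by library shows the spread behind these intervals: within each label the replicate 1 library was the highest of the 3 for 7 of the 8 members.

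Libraries with the same replicate number deviated together, so the replicate number was also fitted as a block, and 11.4% of genes then passed. Under the block 2 of 8 members passed, HLA-E on the higher and TAP2 on the lower side, and a count this small against that background says nothing particular of these genes.

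HLA-E had 345, 281 and 311 CPM in replicates 1, 2 and 3 labelled siRNA1, against 299, 239 and 278 CPM in those labelled NTC. The groups overlapped, but in each same-numbered pair the library labelled siRNA1 was the higher one. With the block it was 1.15-fold higher (edgeR adjusted p = 0.0458), a log2 fold change of 0.20 with an SE of 0.06. That call was lost without siRNA1 replicate 1, 2 or 3, siRNA2 replicate 1, or NTC replicate 1 or 2, with edgeR adjusted p up to 0.201 and log2 fold changes of 0.16 to 0.25.

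TAP2 had 42.6, 38.9 and 33.3 CPM in the libraries labelled siRNA1, against 51.2, 43.9 and 37.2 CPM in those labelled NTC. Here too the groups overlapped while all 3 pairs pointed one way, to lower TAP2 under siRNA1. With the block it was 1.15-fold lower (edgeR adjusted p = 0.0464), a log2 fold change of −0.20 with an SE of 0.06. Leaving out any library but siRNA2 replicate 3 ended the call (edgeR adjusted p up to 0.297), and with the 2 strand counts added the blocked edgeR adjusted p was 0.0503.

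TAP1, the partner subunit, did not pass and had a log2 fold change close to that of TAP2. It had 87.1, 68.0 and 78.1 CPM in the libraries labelled siRNA1, against 99.9, 79.6 and 88.2 CPM in those labelled NTC, a blocked log2 fold change of −0.20 (SE 0.07, edgeR adjusted p = 0.0540). All 3 pairs were lower under siRNA1, and among single libraries left out it passed only without siRNA2 replicate 3.

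B2M had 1934, 1661 and 1611 CPM in the libraries labelled siRNA1, against 1683, 1504 and 1589 CPM in those labelled NTC. The siRNA1 library was higher in all 3 pairs, without passing the test (log2 fold change 0.12, SE 0.06, edgeR adjusted p = 0.240 with the block).

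The remaining members lay close to 0. HLA-B had 225, 144 and 138 CPM in the libraries labelled siRNA1, against 219, 145 and 137 CPM in those labelled NTC. Its log2 fold change with the block was 0.02, with a 95% interval of −0.11 to 0.14, so a difference of the size of that between replicate numbers was outside this interval. HLA-C had 160, 118 and 130 CPM under siRNA1 and 150, 123 and 121 CPM under NTC, with a blocked interval of −0.09 to 0.19. TAPBP had 120, 122 and 118 CPM under siRNA1 and 122, 110 and 111 CPM under NTC, with an interval of −0.06 to 0.21. NLRC5, the transactivator, had 81.2, 61.9 and 67.4 CPM under siRNA1 and 78.4, 65.3 and 61.5 CPM under NTC, with an interval of −0.11 to 0.18.

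**Figure D3:**
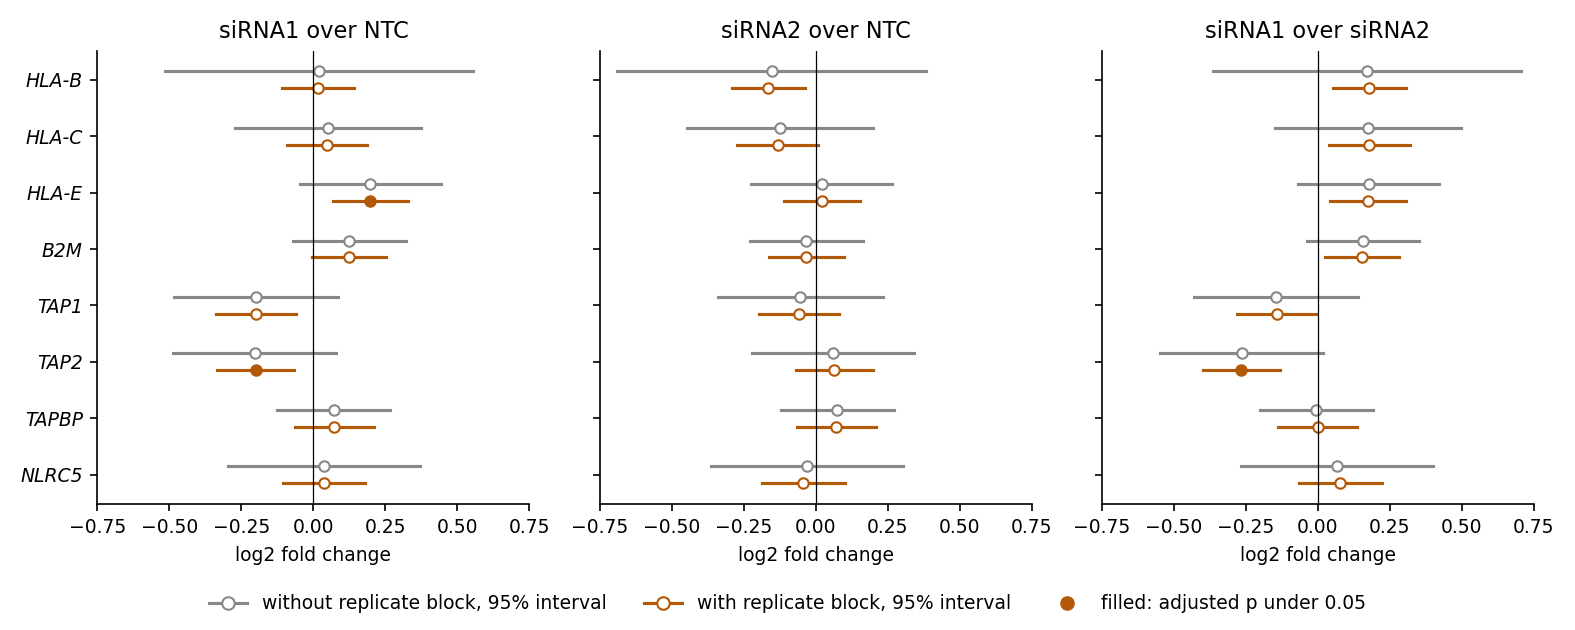
Log2 fold changes of the 8 tested members with 95% intervals, for siRNA1 over NTC, siRNA2 over NTC and siRNA1 over siRNA2, without (grey) and with (orange) the replicate number as a block. Filled points passed at an edgeR adjusted p under 0.05: HLA-E and TAP2 for siRNA1 over NTC, and TAP2 for siRNA1 over siRNA2.

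The second question is the same for TLX1 siRNA2. None of the 8 members passed against NTC, without the block (edgeR adjusted p = 1.00 for each, with 0% of genes passing and 392 genes at an unadjusted p under 0.05) or with it (0.151% of genes passing). No member had an unadjusted p under 0.05 without the block, and by other tools, DESeq2 called 4 genes in all and limma-voom 0. The members' median log2 fold change was −0.03 without the block, against −0.00 over all genes.

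HLA-B and HLA-C were the heavy chains with the larger differences. HLA-B had 205, 130 and 115 CPM in the libraries labelled siRNA2, against 219, 145 and 137 CPM in those labelled NTC. It was lower in all 3 pairs, at a log2 fold change of −0.16 with the block (SE 0.06, edgeR unadjusted p = 0.0133, adjusted p = 0.401), and did not pass. HLA-C had 145, 115 and 101 CPM under siRNA2 and 150, 123 and 121 CPM under NTC, also lower in all 3 pairs and not passing (log2 fold change −0.13, SE 0.07).

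For the other members the sign varied between pairs or the difference was small. HLA-E had 311, 263 and 254 CPM under siRNA2 and 299, 239 and 278 CPM under NTC. B2M had 1619, 1489 and 1561 CPM under siRNA2 and 1683, 1504 and 1589 CPM under NTC. These 2 members had blocked log2 fold changes of 0.02 and −0.03. TAP1 had 102, 79.2 and 76.6 CPM under siRNA2 and 99.9, 79.6 and 88.2 CPM under NTC. TAP2 had 50.6, 45.9 and 41.3 CPM under siRNA2 and 51.2, 43.9 and 37.2 CPM under NTC. Neither transporter subunit moved one way in all 3 pairs. TAPBP had 132, 123 and 106 CPM under siRNA2 and 122, 110 and 111 CPM under NTC. NLRC5 had 83.5, 61.5 and 56.0 CPM under siRNA2 and 78.4, 65.3 and 61.5 CPM under NTC. Each of these 4 had a blocked 95% interval that included 0.

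The libraries labelled siRNA1 and siRNA2 were compared directly, since a call under one label and not under the other does not show a difference. Without the block none of the 8 members passed (1.08% of genes did), and with the block TAP2 did (10.6% of genes did). TAP2 was 1.20-fold lower under siRNA1 than under siRNA2 (edgeR adjusted p = 0.00845), with a log2 fold change of −0.27 and an SE of 0.06. It was lower in 3 of 3 pairs, and the call was lost only without siRNA1 replicate 1 among the 9 libraries (edgeR adjusted p = 0.0973). It was also lost without the 3 replicate 1 libraries (edgeR adjusted p = 0.123). Under the block HLA-B, HLA-C and HLA-E each had a log2 fold change of 0.18 and B2M one of 0.15, all higher in 3 of 3 pairs and none passing (edgeR adjusted p from 0.0628 to 0.128). Without NTC replicate 2, HLA-B and HLA-E passed (edgeR adjusted p = 0.0431 and 0.0495), each in 1 of 9 fits with 1 library left out. HLA-C passed only without the 3 replicate 2 libraries. TAP1 had a log2 fold change of −0.14 and was lower in 2 of 3 pairs. It passed without siRNA2 replicate 3 (edgeR adjusted p = 0.0173) and without the 3 replicate 3 libraries. The plot of fold changes shows heavy and light chains on one side of 0 and both transporter subunits on the other in the comparison between the siRNA labels. The comparisons with NTC share the NTC libraries, and those with siRNA1 share the siRNA1 libraries.

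The genes around the members in the pathway were read from 6 lists of 45 genes. Without the block no gene on them passed in any of the 3 comparisons. With the block, siRNA1 against NTC, where 11.4% of all genes passed, 1 of 5 immunoproteasome genes fell: PSMB8, an inducible catalytic subunit encoded beside TAP1, had 196, 162 and 178 CPM under siRNA1 and 218, 205 and 223 CPM under NTC (a log2 fold change of −0.27, SE 0.06, edgeR adjusted p = 0.00553). The groups did not overlap, and the call was lost without siRNA1 replicate 2 or NTC replicate 3. Of 3 constitutive catalytic subunits 1 fell, PSMB5, which PSMB8 replaces in the immunoproteasome. PSMB5 had 32.7, 31.6 and 30.5 CPM under siRNA1 and 40.6, 37.4 and 39.6 CPM under NTC (a log2 fold change of −0.31, SE 0.07, edgeR adjusted p = 0.00236), and its call held without any 1 library. Of 6 trimming and folding genes 1 rose, TAPBPL, the tapasin-related peptide editor (log2 fold change 0.25, edgeR adjusted p = 0.0307). It passed in 4 of 9 fits with 1 library left out.

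Factors and signals that act on class I promoters moved in both directions under siRNA1 with the block, where 11.4% of all genes passed. Of 8 promoter factors 2 fell: NFYA, a subunit of NF-Y (log2 fold change of −0.33, SE 0.06, edgeR adjusted p = 0.000689), and ATF1 (−0.26, SE 0.07, edgeR adjusted p = 0.0196). NFYA had 97.1, 85.9 and 98.8 CPM under siRNA1 and 121, 106 and 127 CPM under NTC, with no overlap, and its call held without any 1 library, whereas ATF1 passed in 6 of 9 such fits. Of 13 interferon and NF-kappa-B inputs 1 rose and 2 fell. NFKB1 rose, with 40.5, 37.1 and 37.2 CPM under siRNA1 and 32.9, 28.9 and 28.1 CPM under NTC (a log2 fold change of 0.35, SE 0.06, edgeR adjusted p = 0.000572), and held without any 1 library. IRF1, an interferon regulatory factor, fell (−0.24, SE 0.06, edgeR adjusted p = 0.0165), as did the kinase JAK2 (−0.26, SE 0.07, edgeR adjusted p = 0.0226), in 5 and 4 of 9 such fits.

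Among the 7 tested of 10 other class I-like chains, CD1D fell and MR1 rose with the block, against the same 11.4% of all genes. CD1D, which presents lipids to NKT cells, had 7.003, 6.83 and 8.61 CPM in the libraries labelled siRNA1, 10.1, 9.92 and 11.8 CPM in those labelled siRNA2, and 11.5, 10.03 and 12.7 CPM in those labelled NTC. Every library labelled siRNA1 was below all 6 others, at a log2 fold change against NTC of −0.61 (SE 0.08, edgeR adjusted p = 1.64e-05 with the block). MR1, which presents vitamin B metabolites to MAIT cells, had 47.6, 48.7 and 42.5 CPM under siRNA1 and 37.9, 41.3 and 38.8 CPM under NTC (a log2 fold change of 0.23, SE 0.07, edgeR adjusted p = 0.0224), and passed in 5 of 9 fits with 1 library left out. Against NTC no gene of the 6 lists passed in the libraries labelled siRNA2, with or without the block.

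Libraries of replicate 1 were also set against those of replicates 2 and 3, a comparison chosen after the values had been seen. The fit takes the 3 libraries of a replicate number as its replicates, so the p-values do not measure the spread between replicate numbers. In the blocked fit, 7 of 8 members were higher in the 3 replicate 1 libraries than in the 6 replicate 2 and 3 libraries, where 10.9% of all genes were. HLA-B had 225, 205 and 219 CPM in the replicate 1 libraries labelled siRNA1, siRNA2 and NTC, and 115 to 145 CPM in the 6 others. It was 1.60-fold higher (edgeR adjusted p = 2.85e-09), a log2 fold change of 0.68 with an SE of 0.05. NLRC5 had 78.4 to 83.5 CPM in the replicate 1 libraries and 55.9 to 67.4 CPM in the others (log2 fold change 0.38, SE 0.06, edgeR adjusted p = 6.85e-05). HLA-C had 145 to 160 CPM in the replicate 1 libraries and 101 to 130 CPM in the others (0.37, SE 0.06, edgeR adjusted p = 7.73e-05). For these 3 genes the replicate 1 libraries lay above all 6 others.

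The transporter, HLA-E and B2M overlapped between replicate numbers. TAP1 had 87.1 to 102 CPM in the replicate 1 libraries and 68.0 to 88.2 CPM in the others (log2 fold change 0.30, SE 0.06). TAP2 had 42.6 to 51.2 CPM in the replicate 1 libraries and 33.3 to 45.9 CPM in the others (log2 fold change 0.27, SE 0.06). HLA-E had a log2 fold change of 0.23 (SE 0.05, edgeR adjusted p = 0.00367). The calls of HLA-B, NLRC5, HLA-C, TAP1, TAP2 and HLA-E held without any 1 library. B2M, at 0.15 (SE 0.05, edgeR adjusted p = 0.0480), kept its call only without siRNA2 replicate 3, NTC replicate 2 or NTC replicate 3. TAPBP, at 0.12 (SE 0.06, edgeR adjusted p = 0.145), did not pass. The ratio of B2M to HLA-B counts was 7.70 to 8.61 in the replicate 1 libraries and 10.4 to 13.5 in the 6 others.

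**Figure D4:**
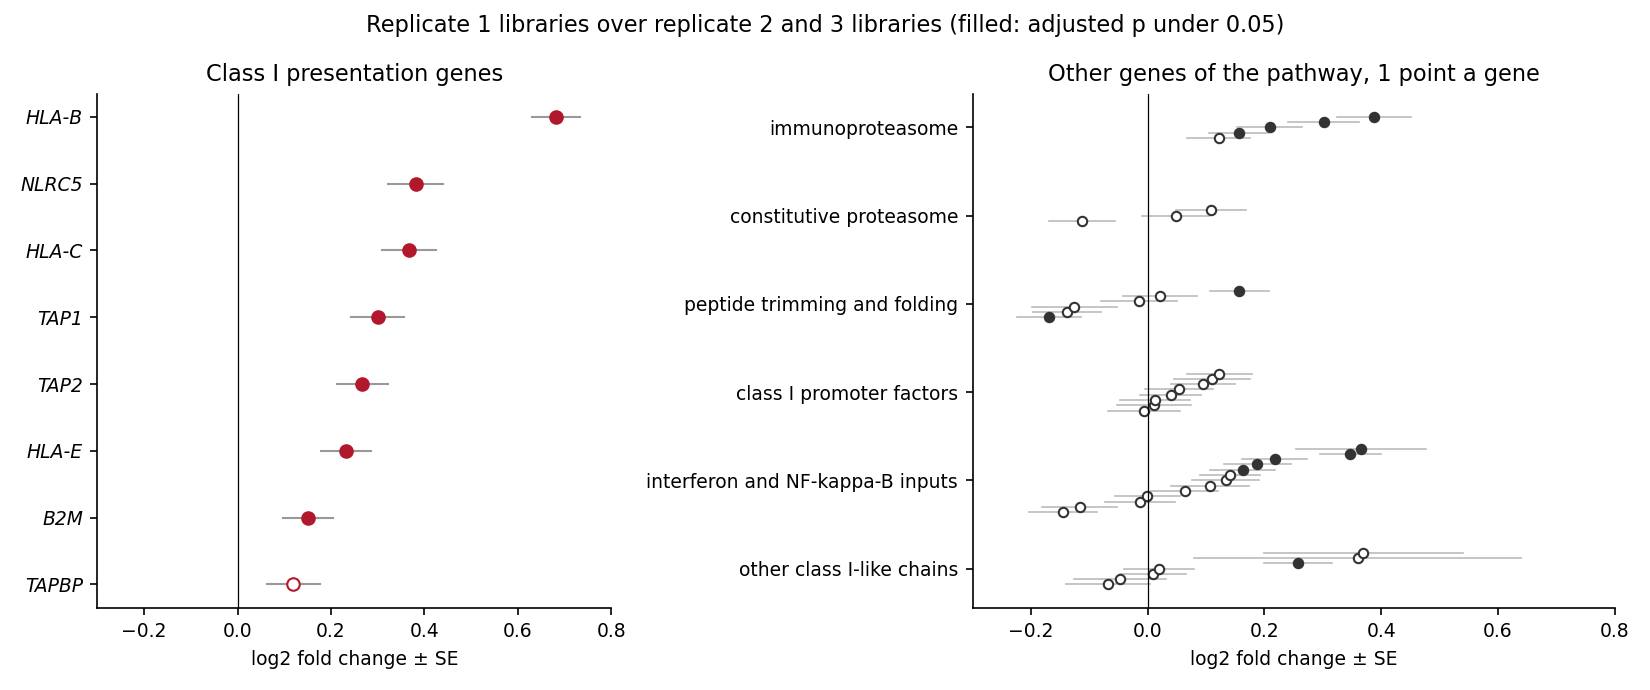
Log2 fold changes (± SE, blocked fit) of the replicate 1 libraries over the replicate 2 and 3 libraries, for the 8 tested members (left) and the tested genes of 6 pathway lists (right), filled where the edgeR adjusted p was under 0.05. HLA-B stands at 0.68. Filled are 4 of 5 immunoproteasome genes and 0 of 3 constitutive subunits, lists that were not tested against each other.

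The plot by replicate number also gives the 6 pathway lists, beside 10.9% of all genes higher in the replicate 1 libraries. Of 5 immunoproteasome genes 4 were higher: PSMB10 (log2 fold change 0.39), PSMB9 (0.30), and the PA28 activator subunits PSME2 (0.21) and PSME1 (0.16). PSMB8, the other inducible catalytic subunit, did not pass (0.12, SE 0.05, edgeR adjusted p = 0.119). None of the 3 constitutive subunits passed with edgeR, and none had an unadjusted p under 0.05. Of 13 interferon and NF-kappa-B inputs 5 were higher and 8 did not pass. Among the 5 were IRF9 (0.37), IRF1 (0.22), IRF2 (0.19) and NFKB1 (0.16). No promoter factor of 8 passed. The peptidase ERAP1 (0.16) was higher and the chaperone CANX (−0.17) lower, and of 7 class I-like chains MICB, a stress ligand of NK cells, was higher (0.26). With any 1 library left out, PSMB10 and PSMB9 always passed, MICB in 8 of 9 fits, PSME2 and IRF1 in 7, IRF2 and IRF9 in 5, PSME1 and CANX in 4, ERAP1 in 3 and NFKB1 in 1.

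Marker levels were set beside the replicate numbers. The B cell list summed to 27.1 to 32.5 CPM in the replicate 1 libraries and 19.9 to 27.1 CPM in the others, with CD22 at 0 in 8 of 9 libraries. Its 2 largest members went opposite ways: CD79A had 16.5 to 20.4 CPM in the replicate 1 libraries and 8.62 to 13.8 CPM in the others, and CD79B had 6.20 to 8.81 CPM in the replicate 1 libraries and 9.22 to 12.1 CPM in the others. The myeloid list was lower in the replicate 1 libraries, at 0.409 to 0.520 CPM against 0.565 to 1.05 CPM in the others, with each marker under 1 CPM. The antigen-presenting cell list did not separate, at 2.48 to 2.68 CPM in the replicate 1 libraries and 2.39 to 2.86 CPM in the others. Nor did the epithelial or fibroblast list, at 239.6 to 263.3 CPM and 247.5 to 296.9 CPM, where all markers but VIM stayed under 1 CPM. The T-cell leukaemia list did not separate either, at 2147.2 to 2226.5 CPM in the replicate 1 libraries and 1988.7 to 2252.8 CPM in the others. Its members went both ways. RAG1, the recombinase of thymocytes, had 12.7, 16.9 and 20.9 CPM in the replicate 1 libraries labelled siRNA1, siRNA2 and NTC, and 18.2 to 61.6 CPM in the others. CD5 was higher in replicate 1, with 158 to 168 CPM there and 125 to 151 CPM in the others. The part of these in the differences was not tested, and in bulk RNA fewer cells of a type and less RNA per cell cannot be told apart.

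The genes whose log2 CPM ran most like 3 of the members over the 9 libraries were found among 8872 genes with a mean of at least 10 CPM. KCNIP3, ADAT1 and FAM129A were most like HLA-B (Pearson r of 0.99, 0.97 and 0.97), GBP4, SEPT8 and TMEM134 most like TAP1 (0.97, 0.96 and 0.96), and CAMK2G, KCNIP3 and NFATC2IP most like NLRC5 (0.96 each). Within the 6 replicate 2 and 3 libraries r was 0.93, 0.66 and 0.70 for those of HLA-B, 0.91, 0.83 and 0.96 for those of TAP1, and 0.77, 0.80 and 0.81 for those of NLRC5. Among the members HLA-C and NLRC5 ran together over all 9 libraries (r = 0.96) and within the 6 (r = 0.97), and HLA-B and NLRC5 at 0.96 and 0.82. HLA-E and TAP2 had an r of −0.00 over the 9 libraries and −0.86 within the 6. These values are descriptions, over libraries of 1 cell line that share replicate numbers.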

How the data were processed

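The authors deposited 1 table of counts per library, whole numbers of reads per gene that are not normalized, as the values show. Per the labels' protocols the mRNA kit does not mark strand, so the unstranded count was used. Reads were placed on GRCh38, per the submitters' processing notes. The aligner and the gene models behind the counts: not given in the sources used here. Identifiers were matched to GENCODE 29 (57492 of 58096). The 4 summary lines of each table were left out, and 75.5% to 77.6% of reads fell in genes.

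CPM values were computed from the deposited counts with TMM factors. The test across genes was that of edgeR 4.0.16 under R 4.3.3 (filterByExpr, minimum count 10 and minimum total 15, 18554 genes kept; quasi-likelihood test, 1 fit of all 3 groups; Benjamini-Hochberg adjustment over all genes, threshold 0.05). SE is the size of the log2 fold change divided by the root of F. Alternatives used DESeq2 1.42.0, limma 3.58.1, other scalings, filters and counts, libraries left out, and the replicate number as a block. Same-numbered libraries of different groups had correlated deviations from their group means (r from 0.38 to 0.62 over 9 pairs, against −0.45 to 0.07 over 18 other pairs), so the numbers pair the samples. No 2 replicates were repeats of each other (chi-square per degree of freedom 32.1 to 53.8). Scripts were tested on simulated data.

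Members and lists were chosen with earlier results of these data known. Named genes are the members, the pathway genes past the test (at most 4 per list by p) and the 3 genes most like HLA-B, TAP1 and NLRC5. Genes named for the replicate 1 comparison were chosen after their values were seen. The values of 1 listed gene are not reported here.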

Additional observations from a re-analysis of the deposited data

Results flagged for a closer look

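Of the genes named here, 8 differed between the libraries labelled siRNA1 and siRNA2 by a direct test with the replicate block, where 10.6% of all genes passed. Their differences from NTC were thus not alike under the 2 labels. Pathway genes were named for passing tests that include this comparison, so the count says nothing particular of them. The only member among the 8 was TAP2 (log2 fold change −0.27, siRNA1 over siRNA2). On the lower side were also CD1D (−0.51), PSMB5 (−0.33), JAK2 (−0.30), NFYA (−0.29) and ATF1 (−0.27), and on the higher side MR1 (0.27) and NFKB1 (0.27). None of the 8 passed in this comparison without the block.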

How the results depend on the processing

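No member passed under the alternatives listed in the methods other than the replicate block. The block moved the members that pass to 2 for siRNA1 against NTC and to 1 for siRNA1 against siRNA2. Values of these paired fits are given in the text, with the members whose calls changed when 1 library was left out. Genes that pass for siRNA1 against NTC numbered 590 with no filter beyond 1 count, 556 with DESeq2 and 2117 with the replicate block, against 238. For siRNA2 against NTC they numbered 15, 4 and 28, against 0, and for siRNA1 against siRNA2 557, 522 and 1958, and 117 with only those 2 groups, against 201. Leaving out libraries or replicate numbers gave 0 to 253 and 0 to 185 genes for the siRNA1 comparisons, the 0 without replicate 3, and 2023 to 4529 for replicate 1, lowest without siRNA1 replicate 1.

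Signs turned only for members that did not pass. TAPBP, siRNA1 over siRNA2, turned to 0.0016 with library size alone, 0.0034 with no filter and 0.00033 with the block. With libraries left out, log2 fold changes of siRNA1 over NTC ran from −0.085 to 0.16 for HLA-C, −0.24 to 0.26 for HLA-B and −0.082 to 0.15 for NLRC5. Those of siRNA2 over NTC ran from −0.073 to 0.094 for HLA-E, −0.44 to 0.091 for HLA-B, −0.042 to 0.18 for TAP2, −0.20 to 0.035 for TAP1, −0.073 to 0.0088 for B2M and −0.22 to 0.083 for NLRC5. Those of siRNA1 over siRNA2 ran from −0.089 to 0.46 for HLA-B, −0.088 to 0.066 for TAPBP and −0.051 to 0.26 for NLRC5.

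Per kb of the longest transcript in place of merged exons, CPM was 104.6 for HLA-B, 68.7 for HLA-C, 110.3 for HLA-E, 0.0159 for HLA-F, 677 for B2M, 28.5 for TAP1, 7.53 for TAP2, 31.4 for TAPBP and 10.04 for NLRC5, which turned the order of TAP2 and NLRC5. From summed strand counts, CPM per kb of merged exons was 70.0 for HLA-B and 27.7 for TAP1, against 53.1 and 17.5 from unstranded counts. The cause was not tested. Of the members only HLA-F had counts too low to test, and why they were low was not tested. Floors there cover counting error only.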
